A study of Ctenopharyngodon idella with 6 samples.

Results

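The miR-140 and miR-455 families were followed in plasma exosomes of grass carp (Ctenopharyngodon idella), the small vesicles that cells release into the blood. Their members were every known miRNA entry whose family is exactly miR-140 or miR-455, whatever its species prefix, letter or arm, which gave 36 of 2925 entries, 14 of miR-140 and 22 of miR-455. Small RNA of plasma exosomes was sequenced from 10-month-old fish that had diverged in growth in 1 high-density pond over 9 months. The large fish group held 3 libraries (L1 to L3), each from the pooled plasma of 2 fish (6 fish in all), and the small fish group held 3 libraries (S1 to S3), each from the pooled plasma of 5 fish (15 fish in all). No agent or genetic change was applied to set the groups apart, and the fish had been ranked by body weight within a random catch. The sex of the fish was not determined. Because every small fish pool held more fish than any large fish pool, the effects of pool size and of body size cannot be told apart. Values of 3 pools are given in the order of their library numbers. The pools shared 1 pond, so the p values measure the spread between these pools only.

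Both families are known for cartilage. The hairpin of a miRNA is cut into a 5p and a 3p arm, and either can be loaded and guide repression of mRNAs that pair with its seed, bases 2 to 8. In mice and zebrafish miR-140 lies in an intron of the wwp2 gene and is made mainly in cartilage under the transcription factor Sox9, and mice without it have a shortened skeleton. In mammals miR-455 lies in an intron of COL27A1, a cartilage collagen gene, and is also made in chondrocytes. In the grass carp annotation (HZGC01 build) wwp2 lies on chromosome 24 from 25640359 to 25690297. The gene col27a1a lies on chromosome 21 from 3798497 to 3872950 and col27a1b on chromosome 5 from 13486456 to 13601459. The miRNA hairpins themselves were not placed on the genome here.

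The 36 names stand for only 13 distinct sets of values, 4 of miR-140 and 9 of miR-455, because 1 read could be counted under several miRBase names. The names carry 23 species prefixes, and 7 have no arm, so each was given its arm by sequence. This gave 8 entries of miR-140-3p, 6 of miR-140-5p, 9 of miR-455-5p and 13 of miR-455-3p. The sequences below, as deposited with the values, are those on which the results turn, with the seed in capitals.
dre-miR-140-3p: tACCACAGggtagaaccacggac
ola-miR-140-3p: aCCACAGGgtagaaccacgg
gga-miR-140-3p: cCACAGGGtagaaccacggac
mmu-miR-140-5p: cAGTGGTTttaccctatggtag
gga-miR-140-5p: aGTGGTTTtaccctatggtag
mne-miR-140: aGTGGTTCtaccctatggtag
dre-miR-455-5p: tATGTGCCcttggactacatcg
hsa-miR-455-5p: tATGTGCCtttggactacatcg
dre-miR-455-2-5p: gTATGTGCccttggactacatt
dre-miR-455-3p: aTGCAGTCcatgggcatatacac
hsa-miR-455-3p: gCAGTCCAtgggcatatacac
mmu-miR-455-3p: gCAGTCCAcgggcatatacac
dno-miR-455-3p: aTGCAGTCcgtgggcatataca
The names of 1 arm begin at different bases, so the printed seed shifts with the name. The seed ACCACAG belongs to 3 entries of miR-140-3p, CCACAGG to 4 and CACAGGG to 1. For miR-140-5p, AGTGGTT is the seed of 3 entries, and 3 other entries have a seed of their own. The seed ATGTGCC is shared by 8 of the 9 entries of miR-455-5p. For miR-455-3p, TGCAGTC and CAGTCCA are the seed of 5 entries each and GCAGTCC of 3. Entries that begin at different bases had the same values in several cases (dre-miR-140-3p and ola-miR-140-3p, for example), so the values do not say which end the reads had.

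Levels are in CPM, the share that an entry took of a library's counts summed over all miRNA names, scaled to 1000000. Reads with a common molecular identifier had been counted once, but a read counted under several names enters the sum under each. The totals are therefore not numbers of molecules. Totals lay between 5272418 counts in L1 and 7660938 in L2 for the large fish, and between 6684107 counts in S1 and 11524535 in S2 for the small fish. An entry with no count could still have been present at up to 0.569 CPM in L1, the shallowest library, or 0.260 CPM in S2, the deepest. These limits and the intervals given with the levels cover counting error only. Group differences (large minus small fish) were tested with limma on log2(CPM + 1) for the 1807 entries that reached 1 CPM in 3 or more libraries. To pass, an entry needed both a 1.5-fold difference and an adjusted p no higher than 0.05. All 36 members were tested, and 23 had at least 1 CPM in every library. The other 13 were the entries of miR-455-3p, of which 2 (xla-miR-455-3p and dno-miR-455-3p) reached 1 CPM in the small fish libraries only. Between levels in plasma exosomes, fewer vesicles from a tissue and fewer copies in each vesicle cannot be told apart.

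None of the 36 entries passed the limma test between large and small fish, against 17.0% of all tested entries (2.82% higher and 14.2% lower in large fish). All 22 entries of miR-455 (9 distinct sets of values) were below the small fish range in every large fish library. The groups overlapped in all 14 entries of miR-140 (4 sets). Of all tested entries, 29.6% had every large fish library below every small fish library, and 40.1% had no overlap in either direction. At an unadjusted p under 0.05, limma counted 16 of the 36 entries, all of miR-455 (13 of the 3p arm and 3 of the 5p arm), beside 32.5% of all tested entries. With identical entries counted once these were 6 of 13 sets of values, beside 321 of 968 over all tested sets. Without the 2 entries that reached 1 CPM in small fish libraries only, 20 of 20 entries of miR-455 did not overlap. In that set 14 of 34 members were at an unadjusted p under 0.05. All 13 entries of the 3p arm were below 1 CPM in L3, so each needed small fish libraries to reach the filter. The filter of 10 CPM left 23 members, without the 3p arm of miR-455. Of these, 3 were at an unadjusted limma p under 0.05, beside 458 of 1185 tested entries. On the whole counts recovered from the CPM values, edgeR's quasi-likelihood test and DESeq2 also passed 0 members, with 13 and 11 at an unadjusted p under 0.05, beside 30.6% and 32.2% of all tested entries. Of all tested entries edgeR passed 2.55% (1.22% as lower in large fish) and DESeq2 22.4% (12.2% as lower). The lowest limma adjusted p was 0.0560, shared by 4 entries of miR-455-3p. The median log2 fold change was -0.20 over the 14 entries of miR-140 and -1.29 over the 22 of miR-455 (-1.38 without the 2 entries above), beside -0.26 over all tested entries. These medians count names with identical values separately, so they depend on how many names each arm has. By arm, the median of miR-455 was -1.38 over the 13 names of the 3p arm and -0.71 over the 9 names of the 5p arm. That of miR-140 was -0.20 over the 8 names of the 3p arm and 0.32 over the 6 names of the 5p arm.

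**Figure D1:**
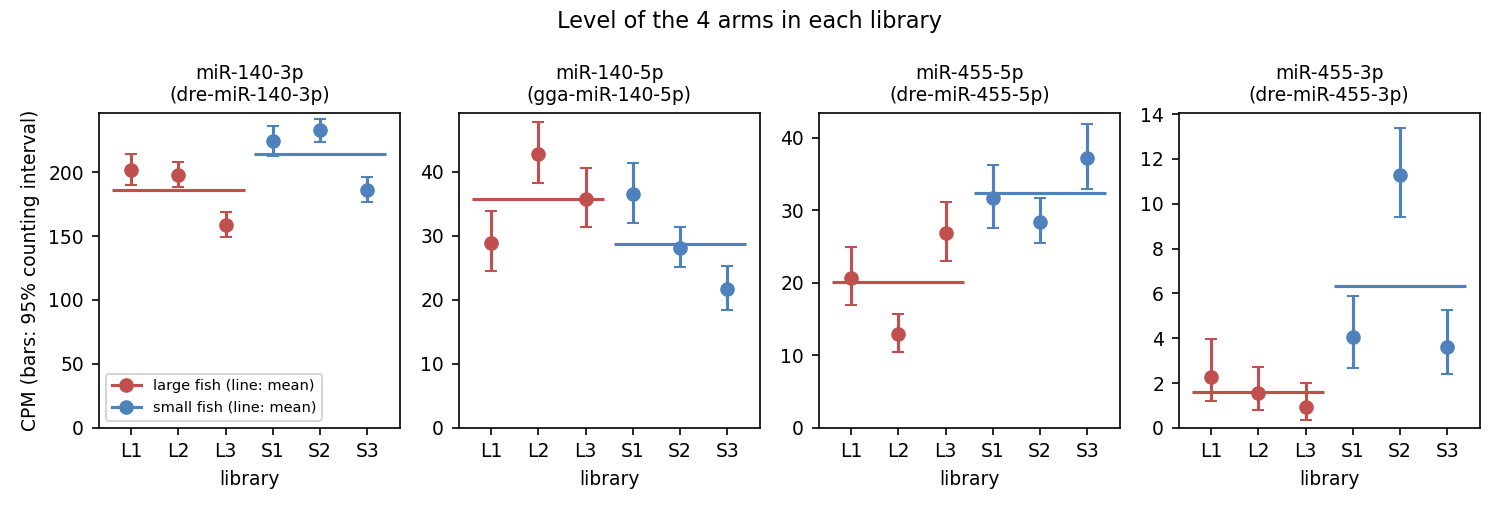
Level of the most abundant entry of each arm, in CPM, in the 3 large fish libraries (red) and the 3 small fish libraries (blue). Points are libraries, vertical bars are 95% counting intervals and horizontal lines are group means. The groups overlap for both arms of miR-140, and every large fish library lies below every small fish library for both arms of miR-455.

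The 3p arm of miR-140 was the most abundant of the 4 arms. CPM levels of dre-miR-140-3p were 202, 198 and 159 in the large fish pools and 224, 233 and 186 in the small fish pools. L3 was the lowest library and S3 the lowest of the small fish, so that S3 lay below L1 and L2. The means were 186 ± 23.8 CPM in large fish and 214 ± 24.8 CPM in small fish (SD, n = 3 pools). The log2 fold change was -0.20 (standard error 0.21, 95% interval -0.69 to 0.29, limma adjusted p = 0.554). The arm was counted 1065, 1517 and 1036 times in the large fish libraries and 1498, 2681 and 1384 times in the small fish libraries. Its 95% counting interval in L3, for example, was 149 to 169 CPM, so the spread between pools was larger than counting error. The sign of this difference depended on the scaling. TMM scaling gave 0.05 and quantile normalization 0.31, which moved the median of all tested entries from -0.26 to -0.05 and 0.09. On the deposited CPM values it lay 0.06 above the median of all tested entries.

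The 5p arm of miR-140 was also measured at overlapping levels. The entry gga-miR-140-5p, which had the same values as the other 5 names of this arm, measured 28.8, 42.8 and 35.8 CPM in the large fish pools and 36.5, 28.1 and 21.6 CPM in the small fish pools. L2 was the highest library and S3 the lowest, and L1 lay below S1. Means were 35.8 ± 6.99 CPM in large fish and 28.8 ± 7.45 CPM in small fish (SD, n = 3 pools). The log2 fold change was 0.32 (standard error 0.28, 95% interval -0.33 to 0.97, limma adjusted p = 0.474). This arm was above 0 in log2 fold change under all 17 other settings, at 0.56 after TMM scaling and 0.72 after quantile normalization, and it passed under none of them. The name mne-miR-140 differs from gga-miR-140-5p by T8C, counted from the 5′ end of gga-miR-140-5p, and yet the values are the same in all 6 libraries.

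The 5p arm of miR-455 was lower in every large fish library than in any small fish library. CPM levels of dre-miR-455-5p were 20.7, 12.9 and 26.9 in the large fish pools and 31.7, 28.5 and 37.2 in the small fish pools. L2 was the lowest, and L3 lay next to the small fish. The counting intervals of L3 (23.0 to 31.1 CPM) and S2 (25.5 to 31.7 CPM) overlapped. Means were 20.2 ± 6.98 CPM in large fish and 32.5 ± 4.43 CPM in small fish (SD, n = 3 pools). Between them the log2 difference was -0.71 (standard error 0.30, 95% interval -1.43 to 0.01, limma adjusted p = 0.157). The difference was -0.47 after TMM scaling, with an adjusted p of 0.331 from limma. Its size depended on which large fish pools were used, at -0.94 without L3 and -0.44 without L2. Without L3, 3 entries of this arm passed the limma test (bta-miR-455-5p and hsa-miR-455-5p at an adjusted p of 0.0370, oga-miR-455 at 0.0436), which hold 2 distinct sets of values, beside 20.2% of all tested entries passing without L3.

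The 3p arm of miR-455 was the rarest of the 4 and had the largest difference in its values. CPM levels of dre-miR-455-3p were 2.28, 1.57 and 0.921 in the large fish pools and 4.04, 11.3 and 3.63 in the small fish pools. These levels rest on 12, 12 and 6 counts in the large fish libraries and on 27, 130 and 27 counts in the small fish libraries. S2 stood apart at 9.42 to 13.4 CPM by its counting interval, while the intervals of L1 (1.18 to 3.98 CPM) and S3 (2.39 to 5.28 CPM) overlapped. Means were 1.59 ± 0.678 CPM in large fish and 6.32 ± 4.30 CPM in small fish (SD, n = 3 pools). The small fish mean was 3.98 times the large fish mean, or 2.41 times without S2. The log2 fold change was -1.38 on the log2(CPM + 1) scale, which understates changes of rare entries (standard error 0.44, 95% interval -2.41 to -0.36, limma adjusted p = 0.0733). On the recovered counts it was -1.76 with edgeR's quasi-likelihood test (adjusted p = 0.107) and -1.73 with DESeq2 (adjusted p = 0.0679). Without S2 the small fish mean was 3.83 CPM and the log2 fold change was -0.93 (limma adjusted p = 0.138).

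**Figure D2:**
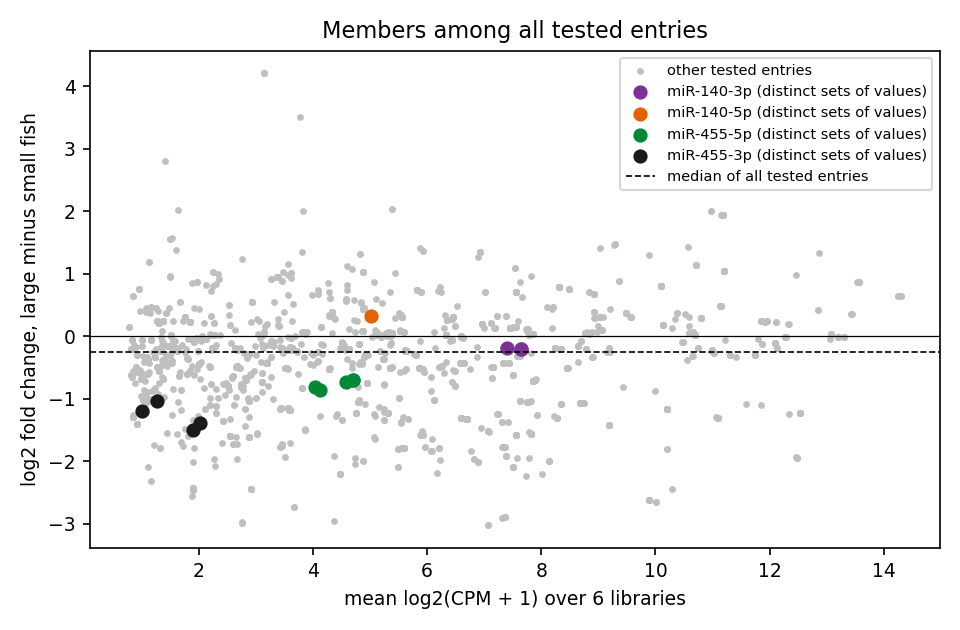
Log2 fold change (large minus small fish) of every tested entry against its mean log2(CPM + 1) over the 6 libraries. Grey points are the other tested entries, coloured points are the distinct sets of values of the 4 arms and the dashed line is the median of all tested entries (-0.26). The entries of miR-140-3p lie near the dashed line, miR-140-5p above 0, and the entries of both arms of miR-455 below the line.

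Read within a library, the CPM of the arms of a family give a ratio that does not depend on how libraries are scaled, although the tested log2 ratio of CPM + 1 depends on the pseudocount. The 3p arm exceeded the 5p arm for miR-140 and the 5p arm exceeded the 3p arm for miR-455, in all 6 libraries. For miR-140 the 5p arm was at 0.143, 0.216 and 0.225 of the 3p arm in the large fish pools and at 0.163, 0.121 and 0.116 in the small fish pools. L2 and L3 were above all small fish libraries and L1 was below S1. The log2 ratio of 5p to 3p, on CPM + 1, differed by 0.52 between large and small fish (standard error 0.32, 95% interval -0.22 to 1.26, limma adjusted p = 0.420 over 70 families with both arms). For miR-455 the 5p arm was 9.08, 8.25 and 29.2 times the 3p arm in the large fish pools and 7.85, 2.52 and 10.3 times in the small fish pools. L3 was the highest and S2 the lowest, and the other 4 libraries of both groups lay between 7.85 and 10.3. The difference in log2 ratio was 0.67 (standard error 0.56, 95% interval -0.62 to 1.96, limma adjusted p = 0.543). It was 0.25 without L3 and 0.14 without S2, but 0.96 without L2 and 1.03 without S3. The pseudocount also set its size, at 1.07 with 0.1 and 0.11 with 5. Among the 70 families limma passed 0 (0.00%), with 9 at an unadjusted p under 0.05. Under other settings 3 families passed with a pseudocount of 5, 2 with no filter on low values, 2 with the replicate block and 1 without L1, and neither miR-140 nor miR-455 was among them.

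**Figure D3:**
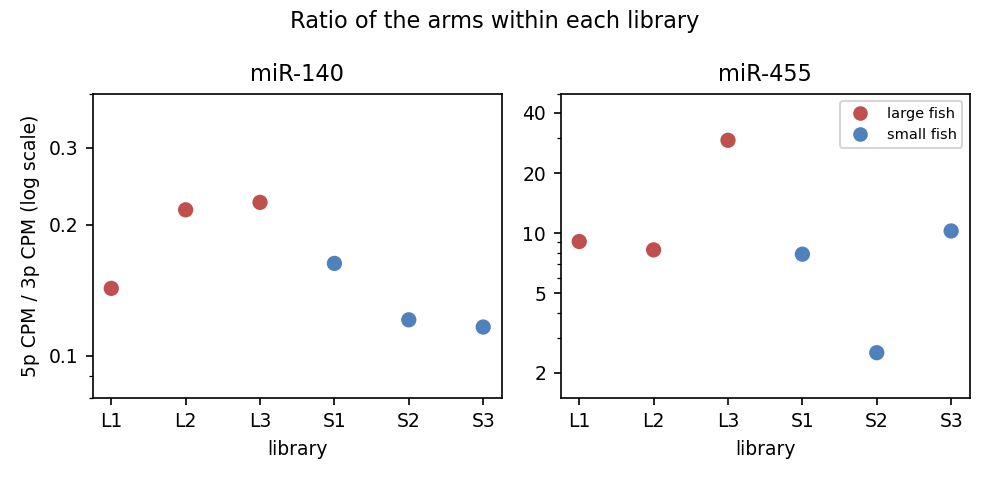
Ratio of the CPM of the 5p arm to that of the 3p arm within each library, on a log axis, for miR-140 (left) and miR-455 (right), with large fish in red and small fish in blue. The ratio is below 1 for miR-140 and above 1 for miR-455 in all 6 libraries, with L3 highest and S2 lowest for miR-455.

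Names of 1 arm that differ in sequence did not always carry the same values. The hsa-miR-455-5p entry differs from dre-miR-455-5p by C9T, just past the seed, counted from the 5′ end of dre-miR-455-5p. It was at 57.8%, 67.7% and 60.6% of dre-miR-455-5p in the large fish pools and at 67.0%, 70.4% and 72.2% in the small fish pools. L1 and L3 were the lowest, and L2 lay within the small fish range. The log2 ratio of these forms differed by -0.15 between large and small fish (2-sided exact permutation test, p = 0.2, adjusted p = 0.36 over 6 ratios, where the smallest p that 3 against 3 libraries allow is 0.1). In the 3p arm the dno-miR-455-3p entry, with A10G against dre-miR-455-3p, held 33.3% to 66.7% of its level in the large fish libraries and 37.0% to 51.9% in the small fish libraries. The mmu-miR-455-3p entry, with T9C against hsa-miR-455-3p, had the same values as hsa-miR-455-3p in all 6 libraries. The cfa-miR-140 entry has no base difference from dre-miR-140-3p over its 21 bases and was at 82.5% to 87.0% of it in large fish and 84.1% to 85.3% in small fish. How reads were divided between such names is not given in the sources used here.

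Against families of smooth muscle and mesenchyme, the 3p arm of miR-140 had ratios that separated the groups in some cases and not in others. The ratio of dre-miR-140-3p to dre-miR-145-5p (miR-145 represses Sox9 in mammalian chondrocytes) was 3.72, 3.46 and 2.22 in the large fish pools and 1.84, 1.10 and 1.36 in the small fish pools. The ratio to efu-miR-143, from the same cluster, was 0.186, 0.143 and 0.0895 in the large fish pools, against 0.0728, 0.0608 and 0.0539 in the small fish pools. With all 6 libraries, both miR-145 and miR-143 passed the limma test as lower in large fish (log2 fold change -1.32 and -1.31), while dre-miR-140-3p differed by -0.20. A ratio to an entry that is lower in large fish tends to be higher there, so these ratios are not separate evidence on miR-140. Groups did not overlap in either ratio, and the log2 ratios differed by 1.11 and 1.11 (2-sided exact permutation test, p = 0.1 for each, adjusted p = 0.3 over 6 ratios). Ratios to dre-miR-199-3p and cgr-miR-214-3p overlapped between the groups, with differences of 1.04 and 1.13 (exact permutation test, p = 0.3 for each, adjusted p = 0.36). In both of these L3 lay within the small fish range. The ratio of dre-miR-455-5p to dre-miR-140-3p was 0.102, 0.0653 and 0.169 in the large fish pools and 0.142, 0.122 and 0.2001 in the small fish pools. These overlapped, with a difference of -0.51 in log2 ratio (exact permutation test, p = 0.4, adjusted p = 0.4). None of these ratios could have passed, since 3 against 3 libraries allow no p below 0.1.

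Among 14 other families studied in cartilage or bone, each by its most abundant entry, 12 were tested with limma. Of these, 4 passed as lower in large fish and 0 as higher. Over the most abundant entries of all 149 tested families, 16.8% passed as lower in large fish and 4.7% as higher. The median log2 fold change was -0.69 over the list and -0.21 over all tested families. The list was chosen with earlier results of these data known, so these counts are not separate evidence. The 4 that passed were miR-145, miR-199, miR-204 and miR-211. Without L2, 0 of all tested entries passed as lower in large fish, these 4 included. The miR-204 entry mmu-miR-204-5p, whose family represses the bone regulator Runx2 in mice, measured 67.3, 40.9 and 77.3 CPM in the large fish pools and 475, 273 and 705 CPM in the small fish pools (log2 fold change -2.89, standard error 0.40, limma adjusted p = 0.0138). The entry of miR-211, mmu-miR-211-5p, moved with it at -3.03, and the 2 mature sequences are near-identical, so that they may share reads. On the deposited CPM values the log2 fold change was below 0 in 10 of the 12 and above in 2, where the median of all tested families was also below 0. The share of all tested families below 0 was not counted, so 10 of 12 is not set against a background. After TMM scaling dre-miR-218a moved from -0.06 to 0.19 and hsa-miR-221-3p from -0.18 to 0.07. The others kept their sign. The most abundant of the list, dre-miR-146b, from a family that dampens inflammatory signalling, was at 14226 ± 10959 CPM in large fish and 4732 ± 60.5 CPM in small fish (log2 fold change 1.33, limma adjusted p = 0.0949). Its large fish pools measured 8078, 26878 and 7721 CPM, with L2 far above the others. Entries of this family did not all move alike, with ssa-miR-146b-5p at -0.19 (limma adjusted p = 0.670), bta-miR-146a at -0.98 (0.0386) and mmu-miR-146a-5p at 1.31 (0.0973). The miR-27 entry, dre-miR-27a-5p, was at 0.31 on the log2 scale (limma adjusted p = 0.551). Entries of its 3p arm differed, with hsa-miR-27a-3p at 0.04 and mmu-miR-27b-3p at -0.21. The miR-199 entry that passed, dre-miR-199-3p, was at -1.24 (limma adjusted p = 0.0479). From the 5p arm of that family bta-miR-199a-5p, at -1.17, did not pass (limma adjusted p = 0.0745). The summed level of the list overlapped between the groups, at 18759 to 33809 CPM in large fish and 19865 to 22484 CPM in small fish. The highest sum was that of L2, of which dre-miR-146b alone made 26878 CPM. The overlap of the sums therefore does not describe the other families of the list. The collagen-repressing family miR-29 was at 191 ± 35.3 CPM in large fish and 309 ± 50.9 CPM in small fish and did not pass (limma adjusted p = 0.0832). The miR-483 entry was below 1 CPM and miR-675, made from the H19 transcript of mammals, had no entry among the known miRNAs.

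Likeness was measured as the root mean square difference of log2(CPM + 1), each entry centred on its own mean over the 6 libraries, against the most abundant entry of 147 other families. For dre-miR-140-3p the closest were cpi-miR-107-3p (0.17), aca-miR-103-3p (0.17) and dre-miR-17a-5p (0.18), beside a median of 0.57 over all families. Its own spread about its mean was 0.18, so these distances are close to the one from a flat profile. For miR-140-5p they were gga-miR-301b-3p (0.18), pma-miR-30b (0.22) and abu-miR-106 (0.22), with an own spread of 0.31. The 5p arm of miR-455 was closest to dre-miR-460-5p (0.15, own spread 0.47), which measured 4.17, 2.22 and 6.75 CPM in the large fish pools and 8.23, 6.16 and 10.8 CPM in the small fish pools. In both entries L2 was the lowest library and S3 the highest. The 3p arm was closest to dre-miR-145-5p (0.41, own spread 0.85), which also peaked in S2, at 211 CPM. Closest entries were picked by distance over these same libraries, so shared lowest or highest libraries are not separate evidence. The arms of a family were not each other's closest entry, at 0.36 between those of miR-140 and 0.77 between those of miR-455.

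**Figure D4:**
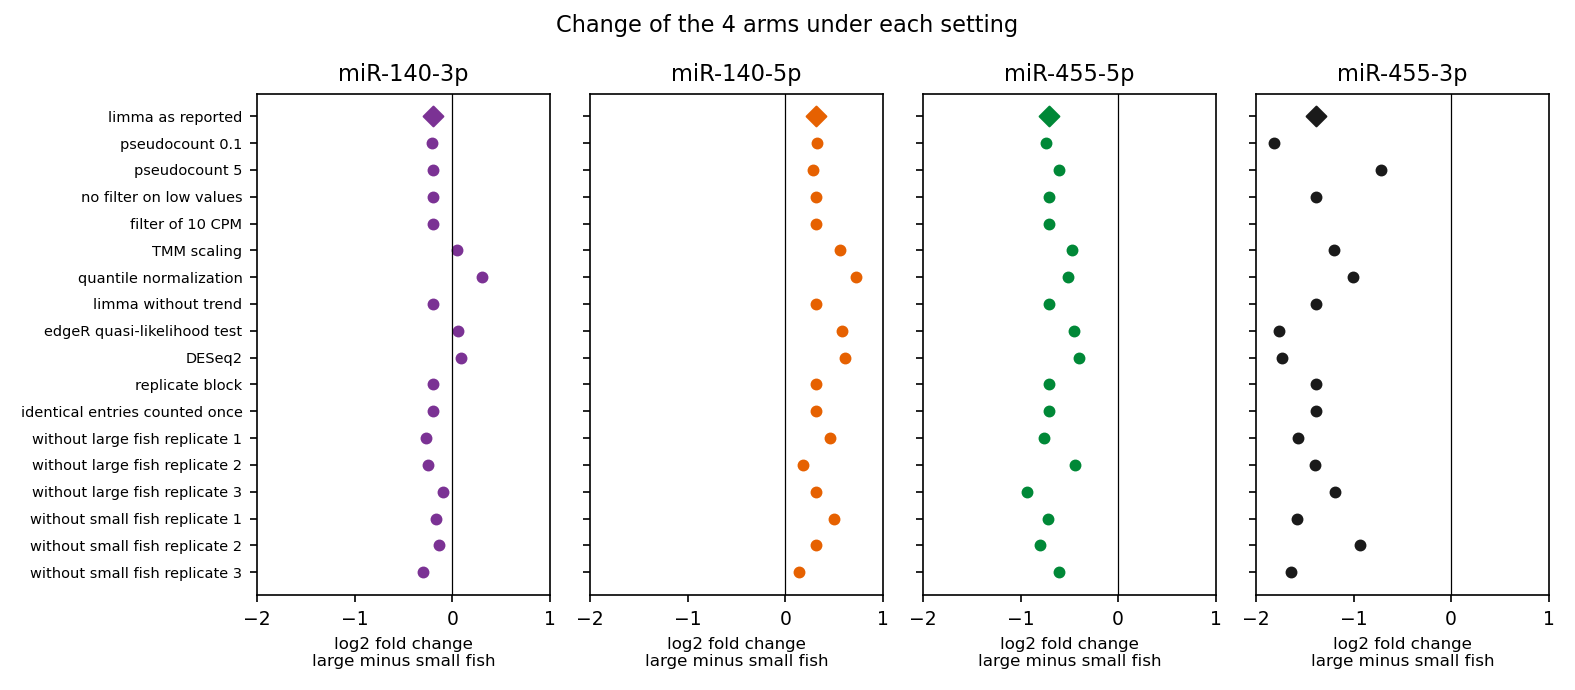
Log2 fold change (large minus small fish) of the most abundant entry of each arm under the reported limma test (diamond) and under each other setting (circles). Both arms of miR-455 stay below 0 and miR-140-5p stays above 0, while miR-140-3p is above 0 under TMM scaling, quantile normalization, edgeR and DESeq2. The 3p arm of miR-455 has no value under the filter of 10 CPM.

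Among marker families of other cell types, some passed the limma test and some did not. These calls used all 6 libraries. From the same libraries the study had already reported miR-1, miR-133, miR-143, miR-145 and miR-206 as mainly lower in large fish. It had reported miR-142, miR-150 and miR-223 as higher. The lists were chosen with earlier results known, so the counts below are not separate evidence. Without L2, 0 of all tested entries passed as lower in large fish and 1 as higher. The 3 skeletal muscle families miR-1, miR-133 and miR-206 all passed as lower in large fish, beside 16.8% of all tested families. Their summed level was 2374 to 6609 CPM in large fish libraries and 10585 to 17496 CPM in small fish libraries. Of 4 smooth muscle and mesenchyme families 3 passed as lower, 2 of them (miR-145 and miR-199) already counted in the cartilage or bone list, which shares 3 of the 4. All 4 summed to 4057 to 8534 CPM in large fish and 11916 to 13463 CPM in small fish. The 3 leukocyte families miR-223, miR-142 and miR-150 all passed as higher, beside 4.7% of all tested families. They summed to 9374 to 11700 CPM in large fish and 3283 to 4506 CPM in small fish. From the 5p arm of miR-142, pbv-miR-142-5p, at 0.80, did not pass (limma adjusted p = 0.0579). The erythroid families miR-144 and miR-451 summed to 3118 to 3275 CPM in large fish and 1411 to 3344 CPM in small fish, and neither passed. Nor did the endothelium and thrombocyte family miR-126 (log2 fold change -0.02, limma adjusted p = 0.983) or the liver family miR-122 (-0.63, limma adjusted p = 0.310). No family of the muscle, mesenchyme, leukocyte and erythroid lists was at 0 in any library. L3 was the large fish library nearest to the small fish in the muscle and mesenchyme sums and in miR-455-5p. It was the farthest from them in dre-miR-455-3p and dre-miR-140-3p. The part of these families in the values of miR-140 and miR-455 was not tested.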

How the data were processed

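Small RNA of plasma exosomes was sequenced in 6 libraries, made from 3 ng of RNA with molecular identifiers. The authors trimmed the reads and used Bowtie to set aside rRNA, tRNA and repeats. Known miRNAs were then found from the genome (HZGC01) and miRBase, each molecular identifier being counted once. The deposited values are CPM, and the known entries sum to 996790 to 997976 CPM per library. Whole counts were recovered by dividing each library by its smallest value above 0, and 100% of values came out whole within 0.02. Main tests used limma 3.58.1 with a trend in R 4.3.3, with p values adjusted by the Benjamini-Hochberg method, and arm ratios used limma without trend. Alternatives were edgeR 4.0.16 and DESeq2 1.42.0 on recovered counts, and pseudocounts of 0.1 and 5. Further ones were other filters and scalings, a replicate block, identical entries counted once and each library left out. The study also used edgeR, in an older version and with its own filter, so the edgeR run here does not repeat its test. The limma, edgeR and DESeq2 group tests and the limma fit of ratios were run on simulated data, and the other procedures were not. The most abundant entry represented each arm or family, a zebrafish name being preferred among identical values. Named entries were drawn from the members, these representatives, the 3 most alike families per arm and the listed families, and not all are printed. Members and lists were chosen with earlier results of these data known.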

Additional observations from a re-analysis of the deposited data

How the results depend on the processing

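Under every alternative run, the most abundant entries of both arms of miR-455 kept a negative log2 fold change and miR-140-5p a positive one, and none of the 4 arms passed. The change of miR-455-3p ranged from -1.81 to -0.72 (adjusted p 0.0626 to 0.178), that of miR-455-5p from -0.94 to -0.40 and that of miR-140-5p from 0.14 to 0.72. The change of miR-140-3p, -0.20 as reported, turned positive at 0.048 after TMM scaling and 0.31 after quantile normalization. It was 0.055 with edgeR's quasi-likelihood test and 0.092 with DESeq2. Each of these runs rescales the libraries, and what lies behind the shift was not tested. Members that passed numbered 0 under all settings except without L3, so leaving out 1 library gave 0 to 3. Over all entries 308 passed as reported (51 higher and 257 lower in large fish), 46 with edgeR (24 and 22) and 173 when identical entries were counted once. Leaving out 1 library gave 1 to 365, with 7 without L1, 1 without L2, 177 without S1, 178 without S2 and 26 without S3. TMM scaling gave 95 higher and 165 lower entries, quantile normalization 138 and 95, and DESeq2 184 and 221. The arm difference ranged from 0.40 to 0.73 for miR-140 and from 0.11 to 1.07 for miR-455. Replicate numbers did not pair the samples: deviations of same-numbered libraries correlated at -0.05, -0.06 and 0.02, and no library correlated best with its own number. With the replicate block 207 entries and 0 members passed. The filter of 10 CPM left miR-455-3p untested, and zebrafish entries alone gave no arm ratio for miR-140. For miR-455-3p, 6 to 12 counts in the large fish libraries limit the precision.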
